A study of Mus musculus with 46 samples.

Results

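The EGF receptor family was examined through 9 genes, of 17242 measured at both ages, in kidney and liver of the mouse. They were chosen by name as the receptors Egfr, Erbb2, Erbb3 and Erbb4, the ligands Hbegf, Tgfa and Areg, and the receptor inhibitors Lrig1 and Errfi1, and all 9 were found in the files of both ages. The study compared 3 arms of wild-type C57BL/6 mice: males castrated at 8 weeks of age, males given a sham operation at that age, and sham-operated females. Tissue was taken at 12 weeks or 18 months of age, so the young castrated males had been without testes for a much shorter time than the old ones. RNA was sequenced in 46 libraries, with 3 for each sham male and sham female group, 6 for castrated males of each tissue at 12 weeks and 5 at 18 months. The series relates castration to sex differences in ageing.

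Receptors of this family are tyrosine kinases that pair on the cell surface when a ligand binds and then start the RAS to ERK kinase cascade, among other routes. Egfr binds EGF, TGF-alpha, amphiregulin and HB-EGF, Erbb3 and Erbb4 bind neuregulins, Erbb4 also binds HB-EGF, Erbb2 has no known ligand of its own and acts as a partner, and Erbb3 has little kinase activity. In liver, Egfr is known as a receptor of hepatocytes that takes part in regeneration, and in kidney, EGF made by the distal nephron acts on tubule cells and on magnesium transport.

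Every value below is the authors' mean of a group, without a spread between libraries, so the overlap of single animals between groups could not be seen. At 12 weeks the unit is FPKM, a count of fragments scaled by gene length and by library size, and at 18 months the unit of the expression values is not named, so genes are compared with each other only at 12 weeks. A gene is said to rise, fall or change only where the adjusted p-value in the authors' deposited table was under 0.05. At 12 weeks that table lists each gene for just 1 of the 3 comparisons in a tissue, and members listed elsewhere have no test. At 18 months it lists all 3, and an implied standard error (SE) was taken from the authors' log2 fold and p-value. The 9 genes were proposed with these results known, so their calls are a description. In whole tissue, fewer cells of a type and less RNA per cell cannot be told apart.

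The labelled tissues carried their defining transcripts. The 6 proximal tubule markers summed to between 3245 and 4657 FPKM in 12-week kidney, against 682 to 797 in 12-week liver. In that liver only 1 of the 6 had a mean of at least 1 in every arm. Slc34a1, Slc5a2 and Slc5a12 were each listed at 0 there in at least 1 group. The 6 hepatocyte markers summed to between 19323 and 26532 FPKM in 12-week liver and 31.7 to 148 in 12-week kidney, although albumin itself was listed at 0 in all 12-week liver groups. The hepatocyte sum in 18-month liver lay between 74960 and 76328 in the unnamed unit.

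The start regions of the receptor with the largest difference between the arms, Egfr, and of Erbb2, whose mean ran the opposite way, are shown because these genes carry the main contrast below. Each sequence is the 250 bases before the RefSeq start in build GRCm38.p6, on the plus strand, 5′ to 3′. Capitals mark the GC box GGGCGG on either strand, the letters bound by SP1-type factors. Egfr lies at chr11:16752203-16918158 and Erbb2 at chr11:98412470-98437716 in mm10, both on the plus strand, and the windows are chr11:16751953-16752202 and chr11:98412234-98412483.
Egfr: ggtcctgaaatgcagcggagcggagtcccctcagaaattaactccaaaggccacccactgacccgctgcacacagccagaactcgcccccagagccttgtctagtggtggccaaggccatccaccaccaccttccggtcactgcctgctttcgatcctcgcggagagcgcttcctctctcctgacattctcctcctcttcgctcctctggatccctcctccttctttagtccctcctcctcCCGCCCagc
Erbb2: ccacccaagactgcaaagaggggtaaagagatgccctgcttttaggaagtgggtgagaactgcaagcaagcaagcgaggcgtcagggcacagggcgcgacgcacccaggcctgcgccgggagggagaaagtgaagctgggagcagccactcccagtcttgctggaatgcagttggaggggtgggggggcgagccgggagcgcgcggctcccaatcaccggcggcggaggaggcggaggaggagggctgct
The Egfr window was 60.8% G and C and held 1 GC box, whose far end lay 9 bases before the start. At least 1 GC box was found in 32.7% of 32851 promoters of this length. The Erbb2 window was 66% G and C and held no GC box, and the median over all promoters was 52.4%. Neither window held the STAT motif TTCNNNGAA (7.02% of promoters), the androgen half-site AGAACA (16.1%), the full androgen element made of that half-site and its inverted repeat 3 bases on (0.00913%) or the TATA box TATAAA (12.4%), each searched on both strands. Every full androgen element also counts as a half-site. These are matches of letters only. Of the 9 members, 7 had an entry in the promoter table. Erbb3 and Hbegf had none.

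Egfr was the member with the largest contrast between the arms, and this contrast was in liver. At 12 weeks its mean in liver was 122 FPKM in sham males, 21.3 after castration and 18.7 in sham females. Sham males stood apart, 5.74-fold above castrated males and 6.55-fold above females, while the other two arms lay close together. In the authors' deposited table Egfr of 12-week liver was listed for the sex comparison, where it fell in females (difference of log2(mean + 1) of -2.65, adjusted p = 0.000856). It was the only member listed there, and all 628 genes listed for that comparison were called, 100% of them, so the call itself separates nothing. The 12-week castration difference of -2.47 on the same scale has no test in these files.

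At 18 months the liver means of Egfr were 63.9 in sham males, 13.2 after castration and 15.7 in sham females, the same arrangement. The authors' deposited table gives a log2 fold of -2.08 (implied SE 0.348, adjusted p = 3.95e-07) for castrated against sham males. For females against sham males, the authors' deposited table gives -1.89 (implied SE 0.324, adjusted p = 5.77e-07). Between castrated males and females, the fold in the authors' deposited table was -0.19 (implied SE 0.276, adjusted p = 0.976), with an implied 95% interval from -0.73 to 0.35. By size of fold, Egfr was in place 45 of 106 genes that fell with castration in 18-month liver and had a group mean of at least 5, and in place 72 of 538 that were lower in females. The hepatocyte marker sums beside these values were 75297 in sham males, 76328 after castration and 74960 in females at 18 months. Within that list, 1 of 6 markers fell with castration and 2 of 6 were lower in females, and none was higher. Serpina1c, a serine protease inhibitor gene, had a log2 fold of -1.08 with castration (adjusted p = 8.25e-05) and -0.95 in females (adjusted p = 4.97e-06) in the authors' deposited table. Ttr, the transthyretin gene, was lower in females (log2 fold -0.49, adjusted p = 0.0122 in the authors' deposited table). At 12 weeks the hepatocyte sums were 26532, 19323 and 22939 FPKM, and Serpina1c fell with castration there too (adjusted p = 0.0270 in the authors' deposited table). The part of hepatocyte markers in the Egfr result was not tested.

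In kidney, Egfr was also highest in sham males, by less. Its 12-week kidney means were 8.71 FPKM in sham males, 6.25 after castration and 3.88 in females. Castrated males lay between the sham arms, and the authors' deposited table called Egfr higher in castrated males than in females (difference of log2(mean + 1) of 0.57, adjusted p = 0.0498), just inside the threshold. The authors' adjusted p was the same for equal p-values in all 3 comparisons, and adjusted within this comparison alone it was 0.239, or 0.158 over genes whose larger mean reached 1. At 18 months the kidney means were 15.7, 12.4 and 10.7 in the same order of arms. The authors' deposited table has Egfr falling by 0.29 on the log2 scale with castration (implied SE 0.0859, adjusted p = 0.00494). In females, the authors' deposited table has it lower than in sham males by a log2 fold of -0.53 (implied SE 0.116, adjusted p = 8.19e-05). The difference between castrated males and females was 0.25 (implied SE 0.107) in the authors' deposited table and did not pass the threshold (adjusted p = 0.157). Of 6 markers of the proximal tubule, which makes up most of the cortex, 4 fell and 1 rose with castration at 18 months, and their sum was 5549 in sham males and 4567 after castration. In females 1 of the 6, Slc34a1, was called lower and none higher, and the median log2 fold of the 6 was -0.01, although their sum of 4256 was the lowest of the arms. Their part in the Egfr result was not tested.

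**Figure D1:**
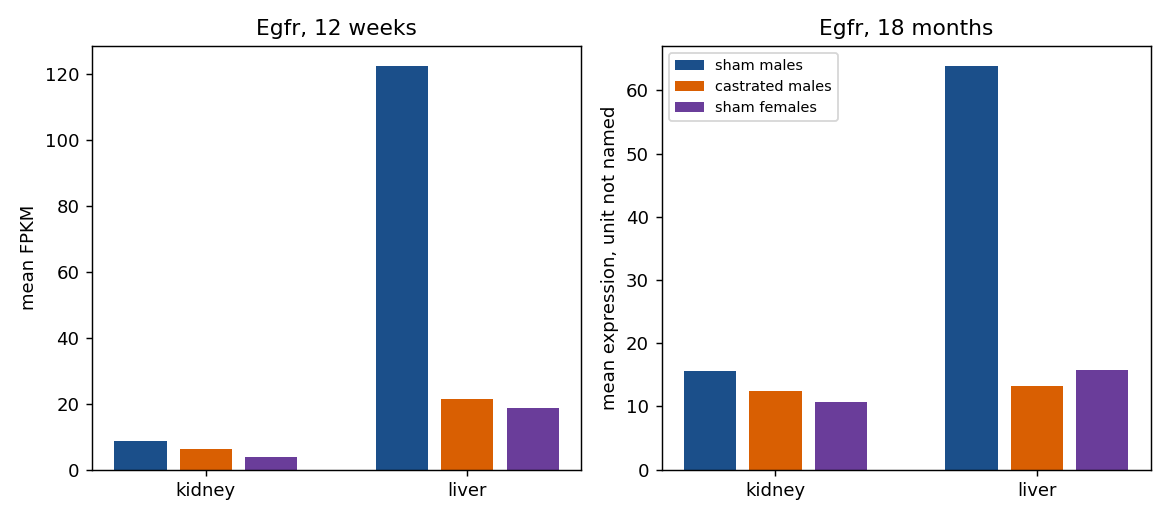
Group means of Egfr in kidney and liver at 12 weeks (FPKM) and 18 months (unnamed expression unit), in sham males, castrated males and sham females. The liver means of sham males, 122 and 63.9, stand above the other arms at both ages, and in kidney the arms run from 8.71 to 3.88 FPKM at 12 weeks.

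Because FPKM is scaled by length, the 4 receptors can be set side by side at 12 weeks. In liver of sham males, Egfr made up 87.2% of the summed FPKM of the receptors, against 48.7% after castration and 48.8% in females. There the ratio of Egfr to Erbb3, the neuregulin receptor with a mean of 17.5 to 21.5 FPKM in all arms, was 6.99 in sham males, 0.988 after castration and 1.003 in females. In 12-week liver, Egfr and Erbb3 were thus at nearly equal mean levels in the castrated and the female arm, and Egfr was well above Erbb3 in sham males. In kidney the Egfr share of the receptor sum was 29.0% in sham males, 15.0% after castration and 10.95% in females.

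Erbb2, the partner receptor, ran the other way in 12-week kidney. Its means there were 9.41 FPKM in sham males, 22.6 after castration and 20.6 in females, a ratio over sham males of 2.40 with castration and 2.19 in females. Sham males were the low arm, and Erbb2 exceeded Egfr by a factor of 1.08 in sham males, 3.61 after castration and 5.31 in females. In the authors' deposited table, Erbb2 of 12-week kidney was the only member listed for the sex comparison and rose in females (difference of log2(mean + 1) of 1.05, adjusted p = 0.00089), where 81.4% of the 3200 genes listed were called. Markers of other cells ran in the same direction in 12-week kidney. Of 6 mesenchymal markers, 5 rose with castration and the other had no test there, with sums over the list of 53.0, 128 and 146 FPKM. Krt19 and Spp1, the 2 listed of 5 genes drawn up for cholangiocytes of liver, rose as well. In kidney they stand for no named cell type here. The part of all these markers in the Erbb2 result was not tested. In 18-month kidney the means were 16.4, 19.6 and 19.1, and the arms lay closer. The log2 fold in the authors' deposited table was 0.10 with castration (implied SE 0.120, adjusted p = 0.673) and 0.08 in females (implied SE 0.0945, adjusted p = 0.733). The upper implied 95% bounds of these 2 folds were 0.33 and 0.27. In liver Erbb2 was under 1 in every group, at 0.241 to 0.532 FPKM at 12 weeks.

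Erbb3 passed no test in any comparison that listed it. Its kidney means were 11.1, 11.7 and 10.1 FPKM at 12 weeks and 18.7, 13.5 and 16.2 at 18 months, in sham males, castrated males and females. The log2 fold with castration in 18-month kidney was -0.63 in the authors' deposited table (implied SE 0.383, adjusted p = 0.260), a wide error for a gene at this level. Liver means lay between 17.5 and 21.5 FPKM at 12 weeks and between 21.7 and 23.2 at 18 months.

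Erbb4, a neuregulin and HB-EGF receptor, changed in old kidney alone among the comparisons that listed it. Its 18-month kidney means were 0.983 in sham males, 2.20 after castration and 2.35 in females. Sham males were the low arm by more than a factor of 2. The authors' deposited table has a log2 fold of 1.05 with castration (implied SE 0.151, adjusted p = 1.68e-10). In females the authors' deposited table has 1.16 (implied SE 0.153, adjusted p = 2.09e-12). Between castrated males and females the log2 fold was -0.11 in the authors' deposited table (implied SE 0.136, adjusted p = 0.801). At 12 weeks the kidney means were 0.839, 1.06 and 0.812 FPKM, and the castration comparison in the authors' deposited table was not called (adjusted p = 0.341). No test compares the ages. Distal nephron markers moved with the 18-month result: of 4 markers of the distal convoluted tubule, 3 rose with castration and 3 were higher in females, with sums of 449, 749 and 736. Of the 4 thick ascending limb markers, 3 rose and 1 fell with castration, with sums of 1482, 2076 and 3249. In females 2 of those 4 were higher and 1 was lower. Other compartments moved as well: 3 of 6 collecting duct markers rose with castration and 5 of 6 were higher in females. Of 4 podocyte markers, 3 rose with castration, and none was called in females. Krt7, Epcam and Spp1, from a list of 5 genes drawn up for cholangiocytes of liver, were higher in both comparisons (list sums of 771, 1893 and 1673). In kidney these genes stand for no named cell type here. The part of all these markers in the Erbb4 result was not tested.

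**Figure D2:**
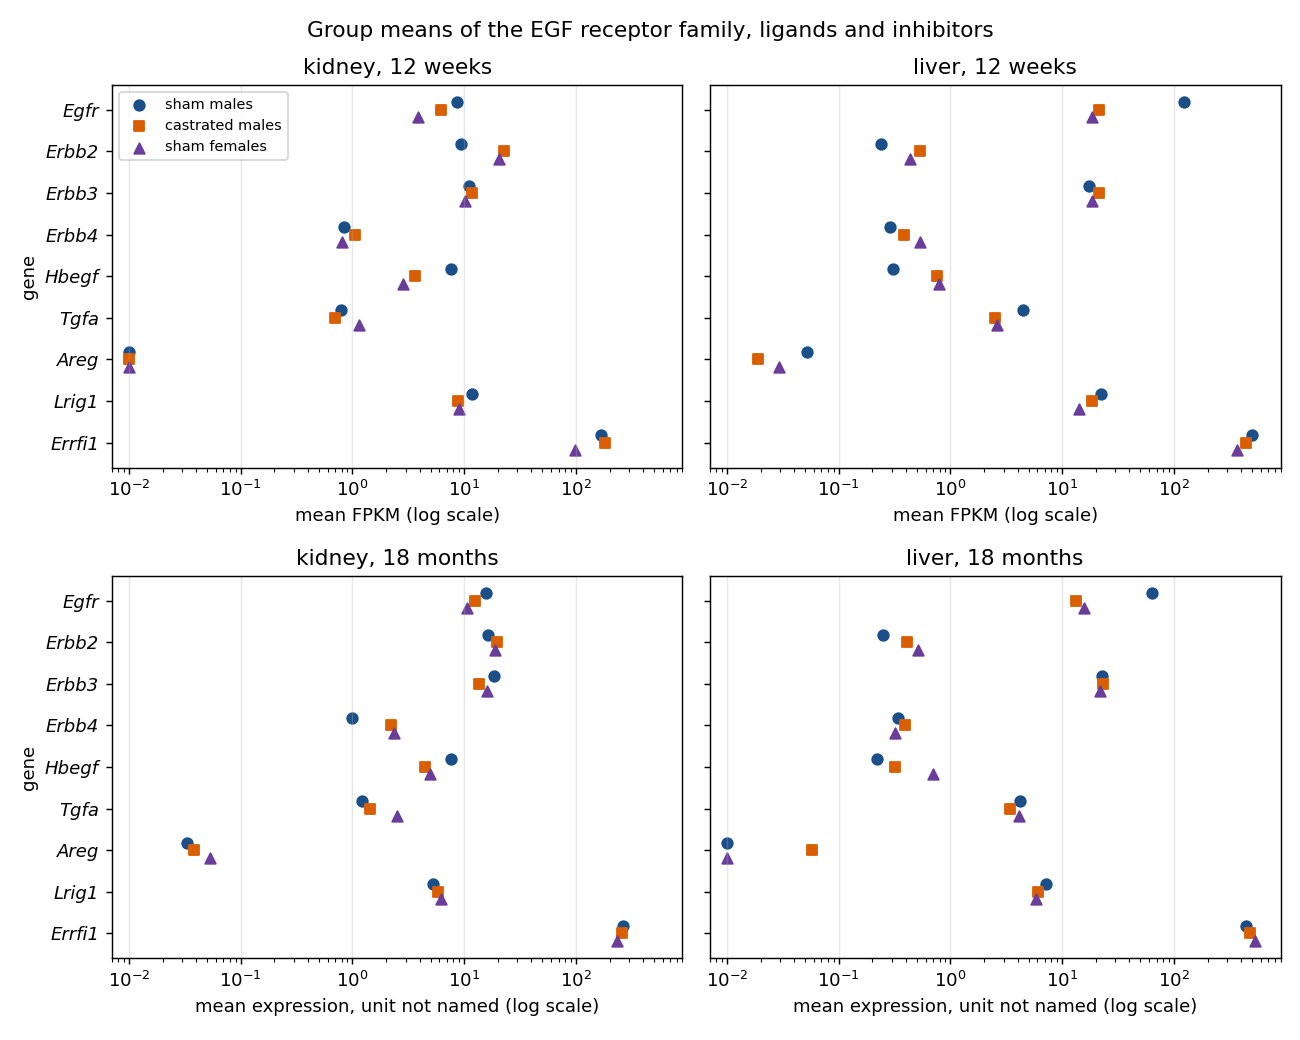
Group means of the 9 members on a log scale in kidney and liver at 12 weeks (FPKM) and 18 months (unnamed unit), with 1 symbol per arm. Egfr in liver (122 against 21.3 and 18.7 FPKM at 12 weeks) shows the widest gap among members with a mean of at least 1 in all 3 arms, and Areg lies at or near the lowest value the files hold.

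Among the ligands, Hbegf was the one whose kidney level was highest in sham males at both ages. HB-EGF is made as a membrane protein and released by metalloproteases. Its 12-week kidney means were 7.60 FPKM in sham males, 3.59 after castration and 2.86 in females. In the authors' deposited table Hbegf fell with castration in 12-week kidney (difference of log2(mean + 1) of -0.91, adjusted p = 0.000476). Of the 2 members listed for that comparison it was the 1 called, where 48.6% of 5598 listed genes were called. At 18 months the kidney means were 7.63, 4.51 and 4.99, again with sham males high. The authors' deposited table has a fall of Hbegf with castration (log2 fold -0.91, implied SE 0.238, adjusted p = 0.00118). It was also lower in females in the authors' deposited table (log2 fold -0.75, implied SE 0.261, adjusted p = 0.0273).

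In liver the order of the arms for Hbegf was the opposite, at low levels. The 12-week liver means were 0.305 FPKM in sham males, 0.759 after castration and 0.788 in females. The authors' deposited table called the castration difference higher (0.43 on the log2(mean + 1) scale, adjusted p = 0.00223). At 18 months they were 0.22, 0.318 and 0.7, and neither difference from sham males was called in the authors' deposited table (adjusted p = 0.976 with castration and 0.102 in females). Whether the tissues differ in their response was not tested.

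Tgfa, the gene of TGF-alpha, had its highest mean in a different arm in each tissue. In 12-week liver its means were 4.46 FPKM in sham males, 2.48 after castration and 2.59 in females, and in the authors' deposited table it fell with castration (difference of log2(mean + 1) of -0.65, adjusted p = 0.000856). Hbegf and Tgfa were the 2 of 4 listed members called in that comparison, where 24.9% of 8479 genes were called. In 18-month liver the means were 4.23, 3.39 and 4.09, and the castration fold of -0.46 in the authors' deposited table was not called (implied SE 0.291, adjusted p = 0.754). In 18-month kidney females were the high arm, with means of 1.22 in sham males, 1.44 after castration and 2.52 in females. The authors' deposited table has Tgfa higher in females than in sham males (log2 fold 0.90, implied SE 0.244, adjusted p = 0.00239). It was lower in castrated males than in females in the authors' deposited table (log2 fold -0.80, implied SE 0.212, adjusted p = 0.00473). The 12-week kidney means were 0.796, 0.703 and 1.15 FPKM, and castrated males were below females there too in the authors' deposited table (difference of log2(mean + 1) of -0.34, adjusted p = 0.0324). Adjusted within that comparison alone, the last p was 0.181, or 0.120 over genes whose larger mean reached 1.

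Areg, the amphiregulin gene, was near the floor. It was listed at 0 in all 3 arms of 12-week kidney, did not exceed 0.0533 in 18-month kidney, and lay at 0.019 to 0.0524 FPKM in 12-week liver. It was called in no comparison.

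Among ligands outside the 9 genes, Egf was the most abundant in kidney at 12 weeks by FPKM. Its 12-week kidney means were 356 FPKM in sham males, 306 after castration and 266 in females. Egf was listed there for castrated males against females only and was not called (adjusted p = 0.552 in the authors' deposited table). At 18 months the kidney means of Egf were 422, 627 and 781, with females high and sham males low. In the authors' deposited table Egf rose with castration in 18-month kidney (log2 fold 0.33, implied SE 0.111, adjusted p = 0.0170). Females were above sham males in the authors' deposited table (log2 fold 0.79, implied SE 0.188, adjusted p = 0.000401). Castrated males were below females in that table (log2 fold -0.45, implied SE 0.147, adjusted p = 0.0373). Against sham males, the sums of thick ascending limb and distal convoluted tubule markers given with Erbb4 ran in the same direction as Egf. The part of these markers was not tested. Btc, betacellulin, was higher in females of 18-month kidney (1.85, 1.76 and 4.38 in the 3 arms), with a log2 fold of 1.12 in the authors' deposited table (implied SE 0.287, adjusted p = 0.00107). For Btc that table has castrated males below females (log2 fold -1.34, implied SE 0.228, adjusted p = 4.81e-07). Its castration fold of -0.23 there was not called (implied SE 0.222, adjusted p = 0.557). In 12-week liver the neuregulin gene Nrg4 rose with castration from 4.80 to 12.0 FPKM (adjusted p = 0.00286 in the authors' deposited table), and females were at 11.1. In 18-month liver Nrg4 was not called in the authors' deposited table, with log2 folds of 0.53 with castration (adjusted p = 0.860) and 0.56 in females (adjusted p = 0.603).

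The inhibitors Lrig1 and Errfi1 were each called in 1 comparison. Lrig1, a transmembrane protein that promotes loss of the receptors, had 12-week liver means of 22.4 FPKM in sham males, 18.5 after castration and 14.1 in females. At 18 months its liver means were 7.10, 6.07 and 5.78, and females were below sham males in the authors' deposited table (log2 fold -0.51, implied SE 0.142, adjusted p = 0.00697). The castration fold in 18-month liver was -0.41 in the authors' deposited table and was not called (implied SE 0.251, adjusted p = 0.733). In 18-month kidney Lrig1 lay between 5.28 and 6.15.

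Errfi1, the kinase inhibitor also called MIG6, was the most abundant member in every group at 12 weeks. Its 12-week kidney means were 167 FPKM in sham males, 181 after castration and 97.6 in females. Females were the low arm, and castrated males exceeded them in the authors' deposited table (difference of log2(mean + 1) of 0.89, adjusted p = 0.000476). In 12-week liver Errfi1 had 496, 440 and 367 FPKM. The ratio of Errfi1 to Egfr transcripts in 12-week liver was therefore 4.05 in sham males, 20.7 after castration and 19.7 in females. In kidney that ratio was 19.2, 29.0 and 25.1. At 18 months Errfi1 was called in no comparison, and its means ran from 231 to 263 in kidney and 446 to 532 in liver.

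Counted over the family, 7 of the 9 members were called in at least 1 of the 12 comparisons, all but Erbb3 and Areg, and 5 were called at 18 months. The share of all genes called in any comparison was not taken, so these counts have no baseline. Single comparisons called between 1.13% and 100% of the genes they listed. With castration in 18-month kidney, 3 of 9 were called (Egfr, Erbb4 and Hbegf), where 22.7% of 17872 genes were. Between the sexes in 18-month kidney, 4 of 9 were called (Tgfa and the same 3), where 16.8% of 17625 genes were. Between castrated males and females in 18-month kidney, Tgfa was the 1 of 9 called, against 7.14% of genes. In 18-month liver, castration gave 1 of 9 (Egfr) against 2.09% of genes, and sex gave 2 of the 8 tested (Egfr and Lrig1) against 9.78%. Castrated males and females of 18-month liver differed in 0 of 9 members by the authors' DESeq2 test, against 1.13% of genes, with Hbegf the 1 member at an unadjusted p under 0.05. At 12 weeks, castrated males and females differed in 3 of 6 listed members in kidney (5.14% of 8444 genes), namely Egfr, Tgfa and Errfi1. In 12-week liver this was 0 of 4 listed members by the authors' test in Cuffdiff layout (4.71% of 8135 genes), with 0 at an unadjusted p under 0.05. The choice of members drew on these contrasts, so the shares stand as a description. The castration and sex comparisons share the sham males.

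**Figure D3:**
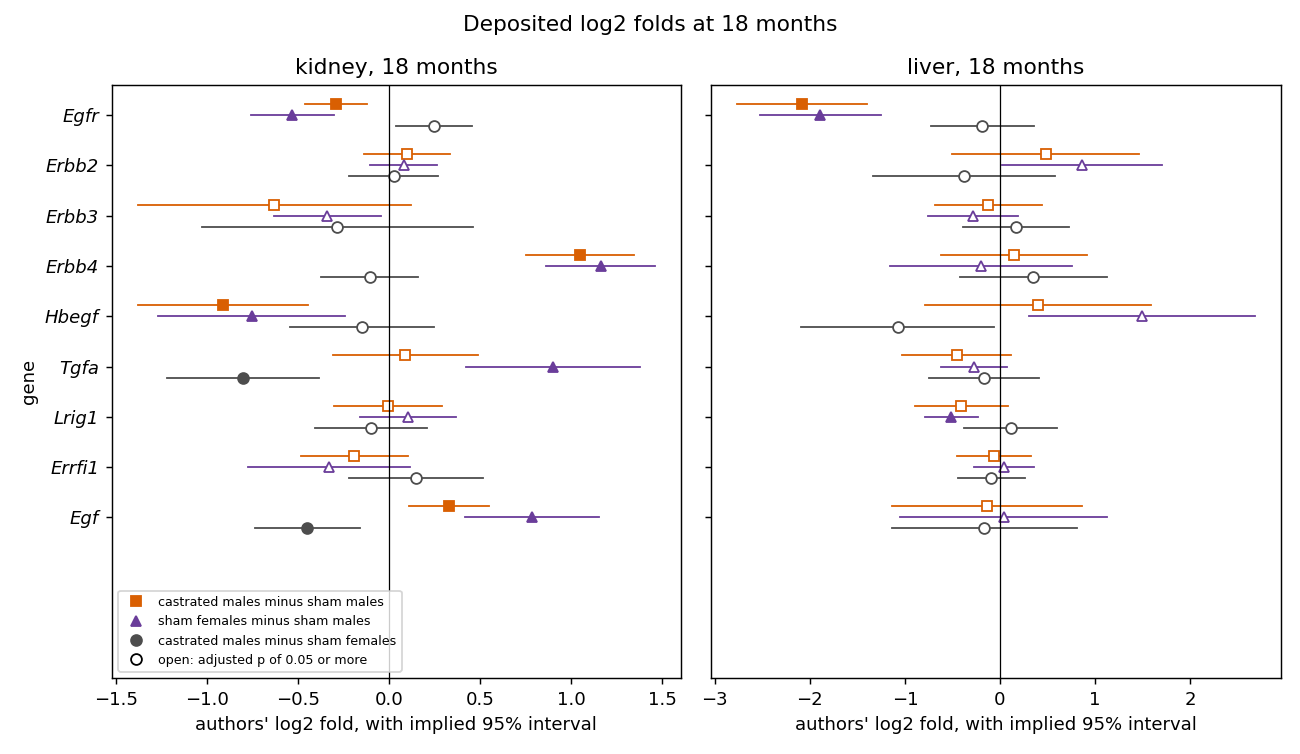
Authors' log2 folds at 18 months for 8 members and Egf in kidney and liver, with implied 95% intervals, for the 3 comparisons of arms; filled symbols had an adjusted p under 0.05. Egfr in liver lies at -2.08 and -1.89 against sham males and at -0.19 between castrated males and females, and Erbb4 in kidney lies at 1.05 and 1.16.

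Downstream of the receptors, 5 lists of genes were counted. Of 16 adaptor and RAS-ERK cascade genes, 6 fell and 1 rose with castration in 18-month kidney, where 13.1% of all genes fell and 9.56% rose. Their median log2 fold in the authors' deposited table was -0.16, beside -0.01 over every gene reaching a mean of 1. Braf, a RAF kinase, had kidney means of 5.73 in sham males and 4.35 in castrated males and the largest fall (log2 fold -0.54, implied SE 0.0980, adjusted p = 6.35e-07 in the authors' deposited table). Gab1, a docking protein, fell by 0.43, and Mapk3, the gene of ERK1, rose by 0.32 in the authors' deposited table. In the sex comparison of 18-month kidney 4 of 16 were called, 2 in each direction, where 16.8% of genes were called.

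Of 16 other negative regulators, 2 fell and none rose with castration in 18-month kidney, near the share over all genes (13.1% fell and 9.56% rose). Dusp4, a phosphatase of ERK, went from 7.20 to 3.24 with castration and was 2.91 in females. The authors' deposited table has a Dusp4 log2 fold of -1.32 with castration (implied SE 0.306, adjusted p = 0.000194). In females the authors' deposited table has -1.45 (implied SE 0.255, adjusted p = 3.74e-07). In 12-week liver, 3 of the 7 listed regulators rose with castration and none fell, where 12.1% of listed genes rose and 12.8% fell. Spry4, an inhibitor of RAS activation, was among them, going from 1.35 to 4.29 FPKM (adjusted p = 0.000856 in the authors' deposited table). The 18-month liver castration comparison called 0 of 16 regulators by the authors' DESeq2 test, where 2.09% of genes were called, with 4 at an unadjusted p under 0.05.

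Of 12 genes that ERK signalling is known to induce, 3 rose and none fell with castration in 18-month kidney, where 9.56% of genes rose. They were Myc, Etv4 and Ier3, and Myc went from 2.89 to 6.97 (log2 fold 1.14, implied SE 0.273, adjusted p = 0.000339 in the authors' deposited table). The median fold of the list was 0.36, and the lowest of the 12 was 0.02. Among the other kidney comparisons, calls ran both ways with sex at 18 months and with castration at 12 weeks. Calls were only upward in 12-week females against sham males and in 18-month castrated males against females. They were only downward in 12-week castrated males against females. In females of 18-month kidney Ier3 and Etv4 were higher and Egr1 lower, 3 of 12 called where 16.8% of genes were. With castration in 12-week kidney, 4 of the 5 listed genes rose and Ccnd1 fell, where 48.6% of listed genes were called. In 18-month liver Myc rose with castration from 0.813 to 3.76 (log2 fold 2.08, implied SE 0.529, adjusted p = 0.00602 in the authors' deposited table), the 1 of 12 called where 2.09% of genes were. The median of all 12 there was 0.83, beside -0.02 over every gene reaching a mean of 1, a level that 8 of the 12 reached. In females of 18-month liver 3 of the 12 rose and none fell, where 5.87% of all genes rose and 3.91% fell. Ccnd1, the cyclin D1 gene, had liver means of 3.87 in sham males, 9.27 after castration and 46.1 in females, and its log2 fold in females was 3.36 (implied SE 0.397, adjusted p = 6.37e-15) in the authors' deposited table. Markers of other liver cells were also higher in females at 18 months. Of 6 mesenchymal markers, 5 rose, with sums of 102 in sham males, 117 after castration and 268 in females, and of 6 immune markers 3 rose, with sums of 63.4, 153 and 361. Their part in the Ccnd1 result was not tested. In 12-week liver, 4 of 6 listed genes rose and 1 fell with castration, where 12.1% of listed genes rose and 12.8% fell. Egr1, an immediate early transcription factor, went from 2.52 to 43.4 FPKM there (adjusted p = 0.000856 in the authors' deposited table). The immune markers Ptprc and Cd74, the 2 of 6 listed for that comparison, also rose, and the immune sums were 52.3, 98.3 and 145 FPKM in sham males, castrated males and females. Their part in these results was not tested.

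Of 5 genes of ligand shedding, 2 fell and none rose with castration in 18-month kidney, where 13.1% of genes fell and 9.56% rose. These were the metalloproteases Adam10 (log2 fold -0.34, adjusted p = 0.000867) and Adam9 (log2 fold -0.38, adjusted p = 0.00649) in the authors' deposited table. Adam17, which is known to release TGF-alpha and HB-EGF, was not called. Of the 7 measured ligands outside the 9 genes, Egf was the 1 that rose in that comparison, and none fell, beside the same shares over all genes. Castration in 12-week kidney called all 3 listed shedding genes, where 48.6% of listed genes were called. Rhbdf1 and Rhbdf2 rose there and Adam9 fell. Between the sexes in 18-month kidney, 0 of 5 shedding genes were called by the authors' DESeq2 test, where 16.8% of genes were. At an unadjusted p under 0.05 there were 0.

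**Figure D4:**
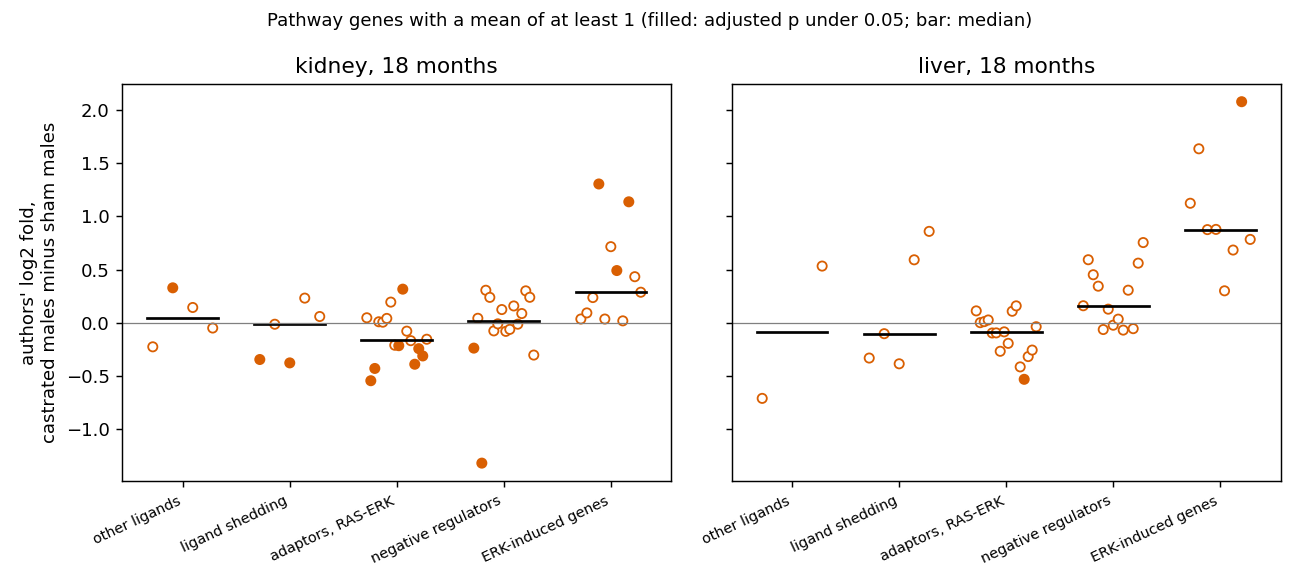
Authors' log2 folds of castrated against sham males at 18 months for the genes of 5 pathway lists with a group mean of at least 1, 1 point per gene, filled where the adjusted p was under 0.05, with a bar at the median of the points shown. In kidney, 6 filled points of the RAS-ERK list lie below 0 and 3 filled points of the ERK-induced list lie above 0, and in liver Myc at 2.08 is the filled point of the ERK-induced list.

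The genes whose means followed each member most closely were ranked by Pearson's r over the 12 group means, as log2(mean + 1) centred within each age and tissue, among 8822 genes with a mean of at least 5 at both ages. The points of one tissue and age share their processing, and centring leaves few free values, so high coefficients are common and the list is a description. For Egfr they were Selenbp2 (r = 0.987), Gstp1 (0.982) and Slc35e3 (0.979). Gstp1, a glutathione transferase, had 2467 FPKM in liver of sham males at 12 weeks, 213 after castration and 204 in females, an arrangement like that of Egfr. For Erbb2 they were Med6 (0.985), Exosc8 (0.978) and Rxrb (0.975), and for Hbegf Arhgap1 (0.978), Tango2 (0.972) and Rgl1 (0.970). For Lrig1 they were Ccdc117 (0.952), Actr8 (0.947) and Scamp1 (0.943), and for Errfi1 Ccdc50 (0.944), Mtcp1 (0.929) and Hnrnpf (0.924). Erbb3 had no gene above Folr1 (0.880), followed by Ttc8 (0.839) and Tle3 (0.836). Folr1 was near the floor in 12-week liver, at 0.241 FPKM or less. Erbb4, Tgfa and Areg were too low to be ranked.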

How the data were processed

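RNA was measured in 46 libraries of 12 groups, from Trizol extracts enriched for polyadenylated RNA and read as 150 bp pairs, per the labels' protocols. HISAT2, SAMtools and Cufflinks were used with mm10, per the submitters' processing notes. Versions and roles were not given in the sources used here. FPKM were deposited by the authors at 12 weeks and a normalized signal of unnamed unit at 18 months, each as 1 mean per group. From the values, 0.01 had been added at 12 weeks, so that value is written as listed at 0. Per the file headers, the authors deposited p-values and adjusted p-values for both ages, in Cuffdiff layout at 12 weeks, and DESeq2 log2 fold changes at 18 months.

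Depth per library is unknown, and no test across libraries could be run. Whether libraries come from separate animals is not stated, so the authors' p-values measure only the spread between libraries. Against the 18-month group means, the fold of a column named for 2 groups was positive when the second was higher, and signs were set accordingly (r of 0.911 to 0.995 with the differences of means). Each fold here is the first named arm minus the second. At 12 weeks direction comes from the means and differences are of log2(mean + 1), which understates low genes. The implied SE divides the size of a log2 fold by the normal deviate of its p-value, and assumes a Wald test on an unshrunken fold, which no source states. It and the places by size of fold were chosen after seeing the data. At 18 months differences of log2(mean + 1) had a median gene at 0.13 and 0.11 (kidney castration and sex) and 0.12 and 0.14 (liver), against 0.05 or less in size for the authors' folds, which are therefore reported.

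The members and gene lists were chosen with earlier results of these data known. Named genes are the 9 members, Egf, and called genes of the lists in order of size with a mean of at least 1. The 3 most alike genes are also named for each member with a mean of at least 5 in at least 1 group of each age. A few called list genes were named out of this order, and Nrg3 of the ligand list was not found. Adam17 was named after its values were seen. The values of 1 gene of the RAS-ERK list are not reported here. Gene positions are from GENCODE vM21 and promoters from RefSeq (GRCm38.p6). Scripts used Python 3.11.15, numpy 2.4.6, pandas 2.3.3, scipy 1.17.1 and matplotlib 3.10.9, and were tested on simulated data.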

Additional observations from a re-analysis of the deposited data

How the results depend on the processing

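Leaving out single libraries was not run, as there are no values per library. No paired analysis was possible because the files hold 1 mean per group and no column for a numbered library. No called difference of a member changed sign under a pseudocount of 0.1, no pseudocount, centring on the median gene, or log2(mean + 1) in place of the authors' fold, the last of which was chosen after seeing the data. Of 120 member and Egf differences, 11 moved under the pseudocount of 0.1, 18 with none and 3 with centring, and 8 of 59 moved with log2(mean + 1).

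Under an adjusted p of 0.01, the members called between castrated males and females in 12-week kidney went from 3 to 1 (Errfi1). ERK-induced genes went from 5 to 2 with castration in 12-week kidney, from 2 to 0 with sex in 12-week liver, from 3 to 1 with sex in 18-month kidney, and from 3 to 1 between castrated males and females there. RAS-ERK genes went from 3 to 0 with sex in 12-week kidney, from 2 to 1 with castration and 1 to 0 with sex in 12-week liver, from 4 to 2 with sex in 18-month kidney, and from 1 to 0 with castration and 2 to 1 with sex in 18-month liver. Other ligands went from 1 to 0 with castration and from 3 to 1 between castrated males and females in 18-month kidney. Shedding genes went from 1 to 0 with sex in 12-week kidney. Negative regulators went from 2 to 1 with castration in 18-month kidney and from 1 to 0 with sex in 18-month liver. These falls follow from the stricter threshold. The share of all genes called at 0.01 was not taken, so these counts have no baseline. At 0.05, the 12-week sex comparisons called 100% of 628 listed genes in liver and 81.4% of 3200 in kidney.

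At 12 weeks the authors' adjusted p was the same for equal p-values in all 3 comparisons of a tissue. Adjusting within the comparison alone, an alternative chosen after seeing the data, left 1 of 3 members between castrated males and females in 12-week kidney and moved no other count of members. Adjusting within the comparison and over genes whose larger mean reached 1 also left 1 of those 3, and left 1 of 2 with castration in 12-week liver. Keeping members with such a mean also left 1 of those 2, since Hbegf is below it. Asking also for an absolute log2 fold of at least 1 at 18 months left 1 of 3 members with castration in kidney (Erbb4), 1 of 4 with sex (Erbb4), 0 of 1 between castrated males and females, and 1 of 2 with sex in liver (Egfr). Centring moved differences of Erbb2 and Hbegf in 18-month liver, where both are low.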

Other observations

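The immediate early genes Egr1, Fos and Junb, transcription factors that respond to ERK within minutes to hours, had female means at opposite ends of the order in kidney at the 2 ages. Egr1 in 12-week kidney was at 2.39 FPKM in sham males, 7.13 after castration and 19.9 in females, and its 18-month means were 9.31, 11.1 and 1.95. In the authors' deposited table it was higher in females at 12 weeks (adjusted p = 0.000476) and lower in females at 18 months (log2 fold -2.40, implied SE 0.802, adjusted p = 0.0201). Fos had 0.872, 2.47 and 6.79 FPKM at 12 weeks and 3.13, 5.72 and 0.923 at 18 months. Junb had 6.33, 12.6 and 20.7 FPKM at 12 weeks and 16.3, 18.4 and 11.3 at 18 months. In the authors' deposited table Junb was higher in females at 12 weeks (adjusted p = 0.000476), Fos was not listed for that comparison, and neither was called between the sexes at 18 months (adjusted p = 0.173 for Fos and 0.111 for Junb). Castrated males were above females in 18-month kidney for Egr1 (log2 fold 2.50, implied SE 0.705, adjusted p = 0.00951 in the authors' deposited table). The same held for Fos (log2 fold 2.64, implied SE 0.786, adjusted p = 0.0167 in that table), while Junb was not called. Fos also rose with castration in 12-week kidney (adjusted p = 0.000476 in the authors' deposited table). By their means, females were the high arm at 12 weeks and the low arm at 18 months for these 3 genes. The ages were processed separately, and the difference between them was not tested.

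In 12-week liver, the trace level of Egf went from 0.284 FPKM in sham males to 1.05 after castration (adjusted p = 0.000856 in the authors' deposited table). In 18-month liver its means were 0.29 in sham males and 0.312 after castration. Egf was not called with castration there (log2 fold -0.14, adjusted p = 0.983 in the authors' deposited table).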
